A study of Homo sapiens with 6 samples.

Results

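The expressed ZNF genes of a hepatic stellate cell line were followed after depletion of SHMT2. Genes were taken from the deposited table where they were protein-coding, had a name of ZNF and a number, and had a mean level of at least 2 FPKM (fragments per length of gene and depth of library) over all 6 libraries. Of 514 protein-coding ZNF genes in the table, 131 met this rule, 41 of them on chromosome 19 and 90 elsewhere. The level chose these genes, so levels are given as a description only. The rule used the mean of both groups and not their difference, but a difference can carry a gene over the threshold. Among members that passed the test below, ZNF18, ZNF134 and ZNF791 had control means under 2 FPKM (1.45, 1.68 and 1.98). ZNF148 and ZNF800 had means under 2 FPKM after depletion (1.71 and 1.62). Each of these met the rule through the other group, so their calls are not independent of it.

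RNA was sequenced from LX2, an established human line of hepatic stellate cells, the liver cells that lay down collagen in fibrosis. Cells labelled as wild type were kept in medium with 2% fetal bovine serum and transfected for 36 h with siRNA. A control siRNA (siNC) was given to 3 libraries, and an siRNA against SHMT2 (siSHMT2) to the other 3. SHMT2 makes glycine from serine in mitochondria and charges folate with a carbon unit. Nothing in the labels says whether replicates were separate cultures. The p-values below therefore speak only to the spread among these 6 libraries, and that spread may be technical. The labels name a single cell line and a single siSHMT2 treatment.

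ZNF genes encode proteins built around zinc fingers, mostly of the C2H2 kind, in which cysteines and histidines hold a zinc ion and successive fingers read successive bases of DNA. Many of these proteins also carry a KRAB domain, which brings in the corepressor TRIM28 and, through it, the histone methyltransferase SETDB1 and other silencing factors. This class arose largely by tandem duplication and fills clusters on chromosome 19, and many of its members bind transposable elements. Other ZNF proteins carry a SCAN domain, through which they pair with each other, or carry fingers alone. A few act on RNA, ribosomes or the spindle and not on promoters.

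SHMT2 had 40.8, 56.3 and 45.1 FPKM in the siNC libraries and 2.26, 2.10 and 2.42 in the siSHMT2 libraries. All 3 siSHMT2 libraries were far below all 3 siNC libraries, and their mean was 4.77% of the siNC mean. SHMT2 fell by 3.88 on the log2(FPKM + 1) scale (SE 0.132, limma with Benjamini-Hochberg adjustment, adjusted p = 2.1e-05). An exact two-sided permutation test of its FPKM gave p = 0.1, the smallest that 3 against 3 libraries allow. Each library held between 14722344 and 15669139 reads. Of 10 stellate or mesenchymal markers, 10 had a mean of at least 1 FPKM, with a summed level of 1910 to 2790 in siNC and 1490 to 1700 in siSHMT2. The lower sum came mainly from TIMP1 (means of 990 and 654 FPKM) and VIM (823 and 501), while COL5A1, LOX, COL1A2 and COL3A1 had higher means in siSHMT2. Hepatocyte and endothelial lists had 0 of 6 and 0 of 5 markers at that level (sums of at most 1.36 and 0.626 FPKM). The leukocyte and epithelial lists had 1 of 5 and 1 of 4, CD14 and KRT7, with PTPRC, LYZ, EPCAM and CDH1 at or near 0. In bulk RNA, fewer cells of a type and less RNA per cell cannot be told apart.

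Chromosome 19 holds 250 of the 514 ZNF genes, and a smaller share of them reached 2 FPKM than elsewhere. The share was 16.4% on chromosome 19 and 34.1% on the other chromosomes. Below the threshold, 95 ZNF genes had a mean of 1 to 2 FPKM and 288 had less than 1, of which 158 were on chromosome 19. In all 6 libraries 37 ZNF genes were listed at 0. Just outside the threshold lay ZNF654, ZNF77 and ZNF79 (means of 1.98, 1.98 and 1.997 FPKM), and just inside it ZNF69, ZNF561 and ZNF416 (2.003, 2.01 and 2.01 FPKM). The ZNF654 libraries ranged from 1.65 to 2.29 FPKM and those of ZNF69 from 1.47 to 2.59, so the genes on either side of the threshold are not separated by level.

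Most expressed ZNF genes were low. The median level was 4.23 FPKM for all 131, 3.20 for those on chromosome 19 and 4.33 for the others, against 9.40 FPKM for the 7958 protein-coding genes with a mean of at least 2 FPKM. A member had between 46 and 3062 reads in a library, with a median of 374, and 12 members had fewer than 100 reads in some library. The authors' transcription factor annotation placed 113 members in the C2H2 family, 17 in none and 1 elsewhere.

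The highest member of all was ZNF622 on chromosome 5 (16451519 to 16465800), a factor of late 60S ribosomal subunit maturation in the cytoplasm. It had 57.3, 82.6 and 73.7 FPKM in siNC and 100.8, 94.6 and 109.7 in siSHMT2. The siSHMT2 libraries were all above the siNC libraries. The difference of 0.52 (SE 0.156) did not pass the test (limma adjusted p = 0.0598), and did pass under several alternatives. These were TPM (0.62, adjusted p = 0.00715), FPKM from the read sums (0.60, 0.0113), voom on recovered reads (0.53, 0.0341), array weights (0.48, 0.00426), the GC trend removed (0.49, 0.0279), protein-coding genes only (0.52, 0.0425) and the fit without siNC replicate 2 (0.64, 0.0287).

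On chromosome 19 the highest was ZNF358 (7515292 to 7521025), with 48.0, 88.3 and 70.8 FPKM in siNC and 89.6, 63.7 and 93.0 in siSHMT2. Its groups overlapped (0.27, limma adjusted p = 0.50). ZNF428 (43607224 to 43619629) had 34.2, 60.1 and 56.7 FPKM in siNC and 71.2, 64.2 and 82.2 in siSHMT2. Its siSHMT2 libraries were all higher, and its siNC replicate 1 lay far below the other siNC libraries (0.55, SE 0.218, limma adjusted p = 0.132). ZNF428 passed the test under TPM (0.65, adjusted p = 0.0264), FPKM from the read sums (0.63, 0.0427), array weights (0.40, 0.0375) and with the GC trend removed (0.52, 0.0453). ZNF580, ZNF414 and ZNF581, the next on this chromosome, had means of 38.9, 23.4 and 20.5 FPKM and overlapping groups, with differences of 0.06, 0.01 and -0.31. ZNF581 passed the test without siNC replicate 1 (-0.56, limma adjusted p = 0.0439) and with array weights (-0.51, 0.0229). ZNF581 (55635459 to 55645623) and ZNF580 (55635016 to 55643470) lie on each other in the annotation, so their reads cannot be fully told apart.

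Away from chromosome 19, ZNF768, ZNF205, ZNF703 and ZNF777 followed ZNF622, with means of 44.1, 32.8, 27.5 and 24.1 FPKM. ZNF768 rose and is described with the called genes. ZNF205, ZNF703, a corepressor gene amplified in breast cancer, and ZNF777, a KRAB gene of chromosome 7, had overlapping groups and differences of 0.36, -0.08 and 0.22 (limma adjusted p = 0.393, 0.734 and 0.504). ZNF777 passed with array weights (0.38, adjusted p = 0.0359).

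After SHMT2 depletion 13 of the 131 ZNF genes were higher and 5 lower (limma on log2(FPKM + 1), Benjamini-Hochberg adjusted p under 0.05 over 10865 genes tested). These are 9.92% and 3.82% of the members, beside 6.07% and 9.85% of all genes tested (15.9% in either direction). Among protein-coding genes with a mean of at least 2 FPKM the shares were 6.9% and 10.7% (17.6% in either direction). The groups did not overlap for 32 members that were higher and 14 that were lower, beside 17.9% and 18.6% of all genes tested (36.4% in either direction). Among the protein-coding genes of at least 2 FPKM these shares were 19% and 19.6% (38.6% in either direction). With FPKM rescaled to TPM the counts were 14 higher and 1 lower, and with FPKM computed from the read sums 16 and 1. Over all 10865 genes tested, TPM gave 686 higher and 620 lower, and the read sums 797 and 767. The main fit gave 659 and 1070, so falls were fewer over all genes as well.

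Differences were small for most members. Their median was 0.09 on the log2(FPKM + 1) scale, with the middle 50% between -0.08 and 0.27 and the extremes at -0.70 and 1.40. A positive difference was seen in 85 of 131 (64.9%, beside 52.9% of all genes tested, whose median was 0.02). Under TPM the median was 0.11 over all genes and 0.20 over the members. The 95 ZNF genes of 1 to 2 FPKM, which are not members, had a median of 0.17, with 76 positive, 3 higher and 0 lower. Counts depended on the libraries. Without siNC replicate 1 the higher count was 8, and without siSHMT2 replicates 1, 2 and 3 it was 4, 7 and 4. The lower count was 2 without siNC replicate 3 and 1 without each of the siSHMT2 replicates.

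**Figure D1:**
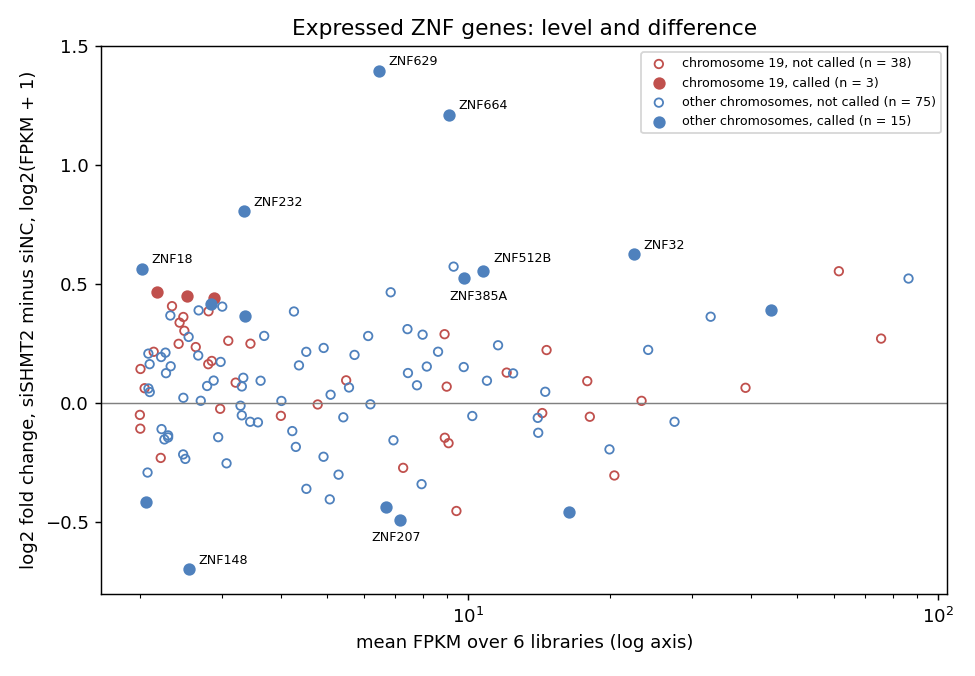
Each point is 1 of the 131 expressed ZNF genes, with its mean FPKM over 6 libraries on a log axis and its log2 fold change (siSHMT2 minus siNC, log2(FPKM + 1)) on the vertical axis. Filled points passed the test (13 higher, 5 lower), red points lie on chromosome 19, and the 2 rises above 1 are ZNF629 and ZNF664.

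ZNF629 showed the largest difference of any member. The gene (ENSG00000102870, chromosome 16, 30778456 to 30787205) encodes a protein in which 19 finger patterns were found. It had 2.84, 3.39 and 3.11 FPKM in siNC and 10.3, 9.29 and 9.90 in siSHMT2. Every siSHMT2 library was well above every siNC library, and the mean went from 3.11 ± 0.278 to 9.82 ± 0.497 FPKM (SD, n = 3). ZNF629 rose by 1.40 (SE 0.0958, limma adjusted p = 0.000216), and no other annotated gene of the table overlaps it.

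ZNF664 (ENSG00000179195, chromosome 12, 123971845 to 124015439), a protein of 9 fingers and little else, had 4.72, 5.30 and 5.27 FPKM in siNC and 12.6, 13.6 and 13.2 in siSHMT2. The groups were far apart and each was tight. ZNF664 rose by 1.21 (SE 0.0917, limma adjusted p = 0.000289). Its neighbour RFLNA overlaps it in the annotation and was not called (-0.29, adjusted p = 0.240).

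ZNF232 (chromosome 17, 5105541 to 5123116), a SCAN domain gene, had 2.11, 1.93 and 2.43 FPKM in siNC and 4.24, 4.19 and 5.14 in siSHMT2. Each siSHMT2 library was above all siNC libraries. ZNF232 rose by 0.81 (SE 0.114, limma adjusted p = 0.00329). The overlapping AC012146.1 was not called (0.07, adjusted p = 0.819). ZNF512B (chromosome 20, 63956704 to 63969930), a protein known to bind the NuRD deacetylase complex, had 8.55, 8.98 and 8.03 FPKM in siNC and 13.2, 13.1 and 12.6 in siSHMT2. Its groups lay apart with little spread in either, and it rose by 0.55 (SE 0.0902, limma adjusted p = 0.00622). ZNF629, ZNF664, ZNF232, ZNF512B and, among the falls, ZNF148 were the 5 of 18 called genes that kept their call under every alternative that tested them.

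The other 4 called rises away from chromosome 19 that the naming rule covers were smaller against their spread. ZNF32 (chromosome 10, 43643860 to 43648881) had 15.3, 18.8 and 18.5 FPKM in siNC and 28.3, 24.5 and 29.8 in siSHMT2. Its groups lay apart, and it rose by 0.62 (SE 0.125, limma adjusted p = 0.0145). Without siSHMT2 replicate 1 or 3 its adjusted p was 0.0706 to 0.0753. ZNF18 (chromosome 17, 11977439 to 11997475), which carries a SCAN domain, had 1.25, 1.85 and 1.24 FPKM in siNC and 2.45, 2.33 and 3.04 in siSHMT2. siNC replicate 2 stood above the other siNC libraries and still below all siSHMT2 libraries (0.56, SE 0.140, limma adjusted p = 0.0319). The call was lost without any library other than siNC replicate 2 (adjusted p = 0.064 to 0.125).

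ZNF385A (chromosome 12, 54369133 to 54391298), an RNA-binding target of p53, had 6.67, 8.27 and 8.63 FPKM in siNC and 12.2, 9.83 and 13.2 in siSHMT2. The lowest siSHMT2 library, replicate 2, was close to the highest siNC library (0.52, SE 0.139, limma adjusted p = 0.0407). The call held without that library and was lost without any of the other libraries (adjusted p = 0.055 to 0.149). ZNF768 (chromosome 16, 30524004 to 30526821), a factor that binds MIR repeats, had 35.3, 40.1 and 38.9 FPKM in siNC and 52.2, 48.7 and 49.6 in siSHMT2. Its groups lay apart, and it rose by 0.39 (SE 0.104, limma adjusted p = 0.0421). Its call held without siNC replicate 2 and was lost without any of the other libraries (adjusted p = 0.0599 to 0.197).

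ZNF267 and ZNF3, both KRAB genes, were also called, and are named because they complete the count, a choice made after their values were seen. ZNF267 (chromosome 16, 31873807 to 31917357) is known as a repressor of the MMP10 gene that is raised in activated stellate cells. It had 2.30, 2.02 and 2.55 FPKM in siNC and 3.19, 3.76 and 3.22 in siSHMT2. The groups did not overlap (0.42, SE 0.109, limma adjusted p = 0.0385), and leaving out any library lost the call (adjusted p = 0.0502 to 0.15). ZNF3 (chromosome 7, 100064033 to 100082548) had 2.63, 2.69 and 3.12 FPKM in siNC and 4.05, 3.91 and 3.73 in siSHMT2. Its groups lay apart (0.36, SE 0.0968, limma adjusted p = 0.0410), and the call held without siNC replicate 3 and was lost without any of the other libraries (adjusted p = 0.0623 to 0.171). The overlapping ZSCAN21 was not called (0.05, adjusted p = 0.904). Under TPM both ZNF267 and ZNF3 lost their calls (limma adjusted p = 0.0805 and 0.0688).

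Chromosome 19 held 3 called members, all higher. Of these, ZNF791 and ZNF134 met the level rule through their siSHMT2 libraries (siNC means of 1.98 and 1.68 FPKM). Their calls are therefore not independent of the rule. ZNF875 (37312837 to 37369365), a KRAB gene also known as HKR1, had 2.31, 2.34 and 2.21 FPKM in siNC and 3.40, 3.58 and 3.41 in siSHMT2. The groups were tight and apart, and it rose by 0.44 (SE 0.0898, limma adjusted p = 0.0157). ZNF791 (12610918 to 12633840), a KRAB gene with 17 fingers, had 1.84, 2.00 and 2.11 FPKM in siNC and 3.11, 2.99 and 3.11 in siSHMT2. Its groups did not overlap, and it rose by 0.45 (SE 0.0945, limma adjusted p = 0.0177).

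ZNF134 (57614233 to 57624724), near the end of the long arm, had 1.88, 1.83 and 1.32 FPKM in siNC and 2.69, 2.71 and 2.65 in siSHMT2. siNC replicate 3 was the lowest, and the siSHMT2 libraries nearly coincided (0.47, SE 0.117, limma adjusted p = 0.0329). These 3 calls were lost without any 1 of the siSHMT2 libraries, and that of ZNF134 also without siNC replicate 3. The adjusted p in those fits was 0.0686 to 0.0765 for ZNF875, 0.0675 to 0.092 for ZNF791 and 0.0688 to 0.123 for ZNF134. TPM lost the ZNF134 call as well (limma adjusted p = 0.0651).

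**Figure D2:**
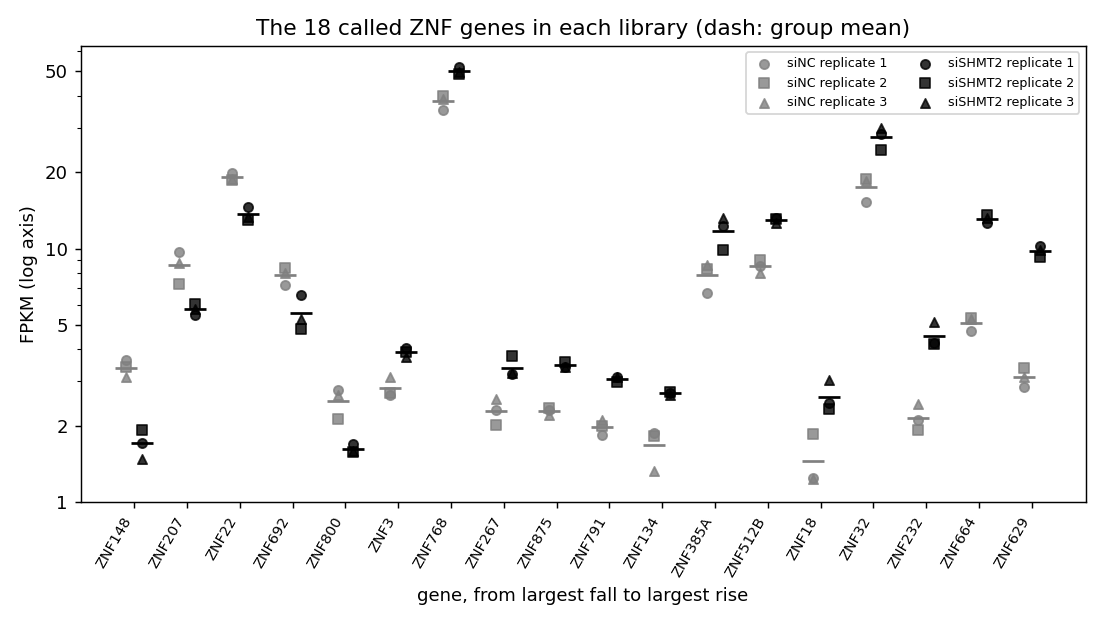
FPKM of the 18 called ZNF genes in each library on a log axis, with siNC in grey, siSHMT2 in black and a dash at each group mean. For all 18 the 3 libraries of a group lie on 1 side of the 3 of the other, with the widest gaps at ZNF629 (3.11 to 9.82) and ZNF664.

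The 5 members that fell were led by ZNF148 (ENSG00000163848, chromosome 3, 125225561 to 125375354), also called ZBP-89, which binds GC-rich promoter elements. It had 3.65, 3.42 and 3.11 FPKM in siNC and 1.70, 1.93 and 1.48 in siSHMT2. All siSHMT2 libraries were far below the siNC libraries, and the mean went from 3.39 ± 0.269 to 1.71 ± 0.222 FPKM (SD, n = 3). ZNF148 fell by 0.70 (SE 0.109, limma adjusted p = 0.00509).

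ZNF207 (chromosome 17, 32350117 to 32381886), also called BuGZ, binds BUB3 and loads it onto kinetochores in mitosis. It had 9.72, 7.25 and 8.75 FPKM in siNC and 5.49, 6.04 and 5.79 in siSHMT2. The siNC libraries were spread widely and still all above the siSHMT2 libraries. ZNF207 fell by 0.49 (SE 0.117, limma adjusted p = 0.0273), and its call was lost without siNC replicate 3 or any 1 of the siSHMT2 replicates (adjusted p = 0.0742 to 0.121).

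ZNF22 (chromosome 10, 45000923 to 45005326), also called KROX-26, had 19.8, 18.7 and 18.9 FPKM in siNC and 14.6, 13.0 and 13.4 in siSHMT2. Its groups lay apart, and it fell by 0.46 (SE 0.0949, limma adjusted p = 0.0163). The call was lost without any 1 of the siSHMT2 replicates (adjusted p = 0.0599 to 0.0845). ZNF692 (chromosome 1, 248850006 to 248859144), also called AREBP, had 7.16, 8.38 and 8.0 FPKM in siNC and 6.56, 4.82 and 5.26 in siSHMT2. Its siSHMT2 replicate 1 was close to siNC replicate 1 (-0.44, SE 0.123, limma adjusted p = 0.0475), and the call held without siNC replicate 1 and was lost without any of the other libraries (adjusted p = 0.0507 to 0.168).

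ZNF800 (chromosome 7, 127346790 to 127431924), a repressor of enteroendocrine differentiation, had 2.76, 2.12 and 2.64 FPKM in siNC and 1.69, 1.57 and 1.59 in siSHMT2. siNC replicate 2 was the lowest control and lay above all siSHMT2 libraries (-0.42, SE 0.112, limma adjusted p = 0.0418). The call held without siNC replicate 2 and was lost without any of the other libraries (adjusted p = 0.0836 to 0.136). Under TPM ZNF207, ZNF22, ZNF692 and ZNF800 lost their calls (limma adjusted p = 0.167, 0.103, 0.108 and 0.182). FPKM from the read sums lost these calls too, while ZNF148 kept its call under both.

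A pair of overlapping 7-base words, GACTTTA and ACTTTAA, was searched on the transcribed strand of 3′ UTRs, taking each gene's longest in GENCODE 29 (GRCh38). The longest may come from a minor transcript, and which 3′ UTRs these cells use was not tested. The words had been picked on the fold changes of these same libraries, so their share among fallen genes is a description and no independent evidence. Either word was present in 4 of the 5 members that fell (ZNF148, ZNF207, ZNF692 and ZNF800, not ZNF22), 1 of the 13 that rose (ZNF512B) and 24 of the 112 searched members that were not called (21.4%). Over all tested protein-coding genes it was present in 58.1% of those called lower, 11.1% of those called higher and 22.7% of those not called. The sites of the called members are shown because they are what the 4 falls share, with the word in capitals and 8 bases on either side.
ZNF148, position 639 of its 3′ UTR: gcctaattACTTTAAaaatatgc
ZNF148, position 1315: aaactacaGACTTTAtccttata
ZNF148, position 3146: gccgggaaACTTTAAaagtaggc
ZNF148, position 5881: tttgctttACTTTAAattgaatt
ZNF207, position 96: ttcattgtGACTTTAAcaaacatt
ZNF207, position 5871: aagtcaccACTTTAActgagtca
ZNF207, position 6469: tcccaataACTTTAAatatatcc
ZNF207, position 8346: cattggacACTTTAAacactcag
ZNF800, position 49: tgtggaaaGACTTTAAattggtgt
ZNF800, position 377: ttgacaaaGACTTTAtatcttag
ZNF800, position 727: tacaaagcACTTTAAtgatagat
ZNF800, position 1660: tagatctaACTTTAAtaactaat
ZNF692, position 1357: gtctttcaACTTTAAgaaacacc
ZNF512B, position 2302: tgtttagcACTTTAAcccccttt
The joined word GACTTTAA, which holds both, occurs in ZNF207 (GRCh38 chromosome 17, 32369855 to 32369862, plus strand) and ZNF800 (chromosome 7, 127371758 to 127371765, minus strand), in each starting within 100 bases of the start of the 3′ UTR. ZNF148 has 4 sites on the minus strand of chromosome 3, the first of them at 125231696 to 125231702. The single sites of ZNF692 and ZNF512B lie at 248853972 to 248853978 of chromosome 1 and 63957580 to 63957586 of chromosome 20, both on the minus strand.

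Members with a word had long 3′ UTRs, with a median of 2692 bases against 1283 for those without. Of the 29 with a word, 1 was higher (3.45%) and 4 lower (13.8%), and the median difference was 0.01. Of all 2407 tested protein-coding genes with a word, 66 were higher and 561 lower. Of the 101 members without, 12 were higher (11.9%) and 1 lower (0.99%), and the median was 0.12. With or without a word, 6.24% of the tested protein-coding genes were higher and 10.2% lower. The siRNA sequences are not given in the sources used here, and the part of the words in these differences was not tested.

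A list of genes that act on RNA, ribosomes or the spindle held 6 members. Of these ZNF207 was called and ZNF622 was not, and both are described above. ZNF385A, the RNA-binding member that rose, was not on this list. ZNF598, a ubiquitin ligase for collided ribosomes, had 12.5, 8.59 and 10.7 FPKM in siNC and 11.6, 12.6 and 13.5 in siSHMT2. Its groups overlapped, as siNC replicate 1 reached the siSHMT2 level (0.24, limma adjusted p = 0.292). ZNF638, an RNA-binding partner of the HUSH silencing complex, ZNF326, a splicing and elongation factor of the DBIRD complex, and ZNF346, which binds double-stranded RNA, had differences of 0.01, 0.20 and 0.06 (limma adjusted p = 0.982, 0.433 and 0.736). ZNF593, another factor of the 60S subunit on the list, stood at 0 in all 6 libraries and is no member.

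Of 10 genes listed as known regulators, ZNF148, described above, was called, while ZNF217, ZNF281 and ZNF93 were members that were not. The list does not hold every member with such a role, ZNF267 and ZNF800 among them. ZNF217, an oncogene of the breast, had 4.68, 2.65 and 3.02 FPKM in siNC and 2.36, 3.18 and 2.49 in siSHMT2, with siNC replicate 1 above all other libraries (-0.26, limma adjusted p = 0.386). ZNF281, a factor of epithelial-mesenchymal transition, and ZNF93, a KRAB protein that binds LINE-1 elements, differed by 0.19 and 0.06 (limma adjusted p = 0.389 and 0.761). ZNF143, a promoter and looping factor, and ZNF274, a KRAB protein that brings SETDB1 to ZNF genes, were below the threshold at 1.45 and 1.40 FPKM. ZNF445, which guards imprints, ZNF91, which binds SVA elements, and ZNF384 and ZNF410 had means of 0.939, 0.648, 0.507 and 0.0275 FPKM, below the level at which genes were tested.

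The proteins were sorted by patterns in the longest GENCODE 29 coding sequence of each gene. KRAB was called where at least 6 of 8 fixed residues of the A box matched, and SCAN where at least 8 of 10 matched. A gene that met both was counted as SCAN only, as was ZNF18 (6 KRAB and 9 SCAN residues). The rest were split by whether at least 3 C2H2 finger patterns were found. A pattern can miss divergent boxes, so the classes describe matches only. KRAB genes numbered 42 (19 on chromosome 19), SCAN genes 11 (1), genes with fingers only 63 (20) and genes with few fingers 15 (1). The chromosome 19 members had a median of 12 finger patterns and the others 7.

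KRAB genes were the lowest class, with a median level of 2.58 FPKM and a highest of 24.1. Of the 42, 4 were higher (ZNF3, ZNF267, ZNF791 and ZNF875) and 0 lower, 30 had a positive difference (71.4%), and the median was 0.20. Over all genes tested 6.07% were higher, 9.85% lower and 52.9% positive. KRAB genes on chromosome 19 had 15 of 19 positive with a median of 0.23, and those elsewhere 15 of 23 with a median of 0.15. SCAN genes had 2 of 11 higher (ZNF232 and ZNF18), 0 lower and a median of 0.01. Genes with fingers only had 7 higher and 4 lower of 63 and a median of 0.07, and genes with few fingers 0 and 1 of 15 and a median of 0.09. Among the called genes of these classes, ZNF791, ZNF18 and ZNF134 met the level rule through the siSHMT2 libraries. ZNF148 and ZNF800 met it through the siNC libraries. The 2 largest rises (ZNF629, ZNF664) and the largest fall (ZNF148) were in the class with fingers only. Whether the classes differ was not tested, since genes are not replicates.

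Chromosome 19 members and the rest had similar medians. On chromosome 19 the median was 0.13, with 28 of 41 positive, 3 higher and 0 lower, and a range of -0.46 to 0.55. Elsewhere it was 0.09, with 57 of 90 positive, 10 higher and 5 lower. The share called in either direction was 7.32% on chromosome 19. That share includes ZNF134 and ZNF791, which met the level rule through the siSHMT2 libraries where they were higher. Elsewhere 11.1% were higher and 5.56% lower. For comparison, all genes tested had 6.07% higher, 9.85% lower and 52.9% positive. The other 544 protein-coding genes of chromosome 19 with a mean of at least 2 FPKM had a median of 0.06, with 37 higher and 23 lower. The difference between chromosome 19 and the rest was not tested. The summed level of the 41 members was 317, 474 and 408 FPKM in siNC and 448, 388 and 484 in siSHMT2, so the groups overlapped and siNC replicate 1 was the lowest. The 2 kinds of chromosome 19 member differed in level, with a median of 2.53 FPKM for KRAB genes and 9.26 for genes with fingers only.

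**Figure D3:**
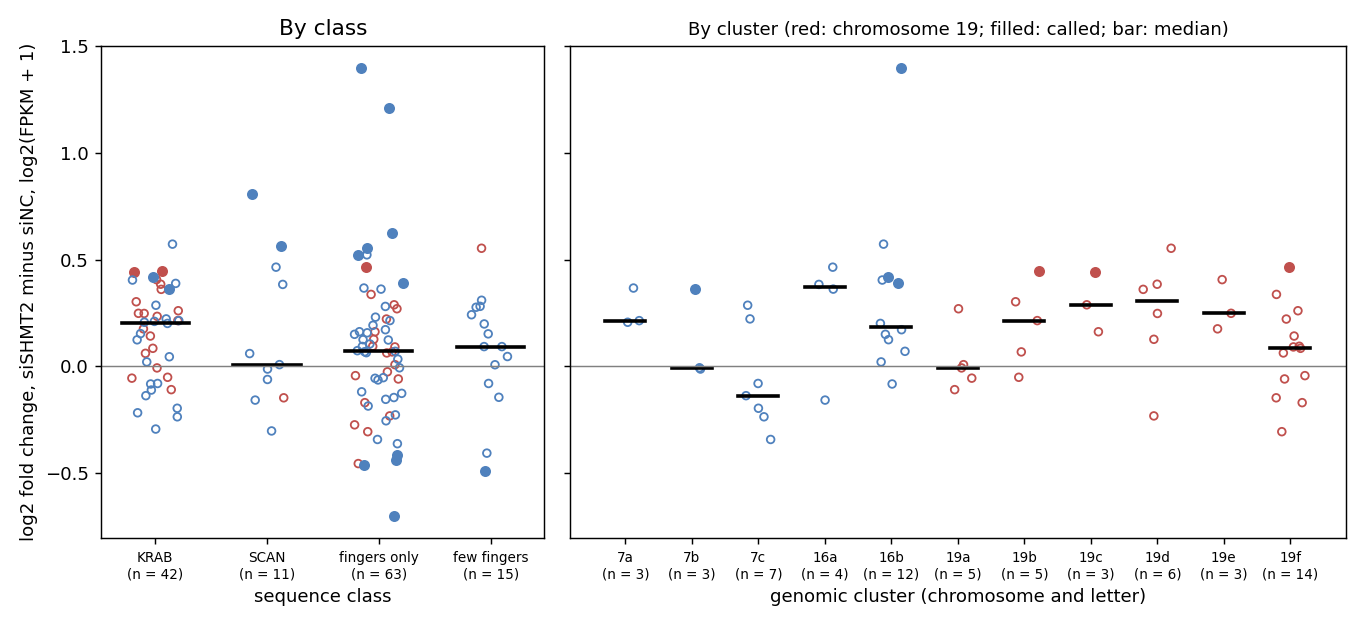
Log2 fold changes (siSHMT2 minus siNC, log2(FPKM + 1)) of the 131 members by sequence class on the left and, on the right, of the members in clusters named by chromosome and letter. Red marks chromosome 19, filled points passed the test and bars are medians, which run from -0.14 in cluster 7c to 0.37 in cluster 16a.

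Members whose starts lay less than 1 Mb from the next formed 11 clusters of at least 3 genes, 6 of them on chromosome 19. The second largest cluster was not on chromosome 19 but on chromosome 16 (30378106 to 31917357, 12 members). It held ZNF48, ZNF771, ZNF768, ZNF747, ZNF764, ZNF688, ZNF785, ZNF689, ZNF629, ZNF668, ZNF646 and ZNF267. Of these 11 had a positive difference, 3 rose (ZNF629, ZNF768 and ZNF267), the groups did not overlap for 7, all higher, and the median was 0.19. Over all genes tested 52.9% had a positive difference, 6.07% were called higher, and 17.9% were higher with no overlap. A group of 4 elsewhere on the same chromosome (3112560 to 3409364: ZNF205, ZNF213, ZNF263 and ZNF174) had a median of 0.37 and 0 calls. In all, 16 of 18 members on chromosome 16 had a positive difference.

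A cluster on chromosome 7 (149126416 to 150398630) went the other way by sign. It held ZNF398, ZNF282, ZNF212, ZNF783, ZNF777, ZNF746 and ZNF775, most of them KRAB genes. Of the 7, 2 had a positive difference, the median was -0.14 and 0 were called. On chromosome 19 the largest cluster (55476617 to 58418327, 14 members) had a median of 0.09 and 1 rise, ZNF134. The cluster at 43596392 to 45076587 had 5 of 6 positive and a median of 0.30 with 0 calls, and the 1 nearest the short arm's end (7515292 to 9621236) had 2 of 5 positive and a median of -0.01. These clusters were not tested against each other.

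The silencing machinery that KRAB proteins use was read from a corepressor list. Of its 28 tested genes 1 was higher and 1 lower (3.57% each, beside 6.07% and 9.85% of all genes tested), and the median was 0.02, as over all genes tested. Array weights called 5 higher and 2 lower. That fit also called far more of all genes in both directions, so the shares above do not apply to its counts. HDAC1, a histone deacetylase, had 19.8, 24.0 and 19.99 FPKM in siNC and 29.02, 28.3 and 29.5 in siSHMT2. The groups lay apart, and HDAC1 rose by 0.43 (SE 0.110, limma adjusted p = 0.0348). DNMT1, the maintenance DNA methyltransferase, had 12.2, 6.86 and 10.3 FPKM in siNC and 4.90, 5.12 and 4.75 in siSHMT2. The siNC libraries were spread widely above the siSHMT2 libraries, and DNMT1 fell by 0.83 (SE 0.179, limma adjusted p = 0.0193). Either 3′ UTR word was present in 9 of the 28 tested genes of the list (32.1%), DNMT1 among them. Of the tested protein-coding genes that were searched, 25.6% held one.

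TRIM28, the corepressor that KRAB domains bind, was high throughout, with 148, 235.7 and 161 FPKM in siNC and 134.5, 116.5 and 134.6 in siSHMT2. All siSHMT2 libraries were below all siNC libraries, and siNC replicate 2 stood far above the rest (-0.47, SE 0.189, limma adjusted p = 0.142). SETDB1 had 1.02, 0.545 and 1.08 FPKM in siNC and 1.31, 1.25 and 1.11 in siSHMT2, with siSHMT2 just above (0.25, SE 0.148, limma adjusted p = 0.301). TRIM28 passed the test with each library's GC trend removed (-0.50, adjusted p = 0.0322) and with array weights (-0.32, 0.0472). The HDAC1 call held without siNC replicate 2 and was lost without any of the other libraries (adjusted p = 0.0569 to 0.142), and the DNMT1 call was lost without siNC replicate 3 or any 1 of the siSHMT2 replicates (0.0602 to 0.0711). TPM and FPKM from the read sums lost it as well (0.0739 and 0.0514).

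Promoters from RefSeq (GRCh38.p14, 250 bases before to 50 after the start, the first listed start of each gene) were matched by symbol for 119 of the 131 members. The word CCGGAAG, a core to which ETS factors bind, was found on either strand in 36.1% of member promoters and in 21% of the 7735 promoters of tested protein-coding genes. It was found in 31.6% of chromosome 19 members and 38.3% of the others. GGGCGG, a GC box, was found in 71.4% of members and 73.2% of all, CCAAT in 38.7% and 37%, and TATAAA in 1 member (0.84%) against 4.76%. No word contains another, though their ends can overlap, and they were picked from a longer set with values seen, so the shares are descriptions. The ETS word was found in 5 of the 16 called members with a promoter, which are shown because they lie near the start, with the word in capitals, or its reverse complement CTTCCGG where the word lies on the other strand.
ZNF134: ctgggcgggaCTTCCGGtatcttcctc
ZNF267: gcaggggcggCTTCCGGgatttggcgg
ZNF22: gaggccctcaCTTCCGGcggcgcggga
ZNF3: aacaaccgacCCGGAAGcgaaacgagg
ZNF18: cacccagctcCCGGAAGtgcgcccgga
The word starts 17 bases before the annotated start in ZNF134 and 34 bases before it in ZNF267 and ZNF3, and lies at base 2 after the start in ZNF22 and base 10 in ZNF18. ZNF134, ZNF267, ZNF3 and ZNF18 rose and ZNF22 fell. Members with the word had a median difference of 0.12 and those without 0.08.

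Library differences within a group moved many members together. The median SD of a member was 0.171 on the log2 scale among siNC and 0.112 among siSHMT2 libraries, and 101 of 131 had the larger SD in siNC. siNC replicate 1 was the lowest control for 58 members, and siNC replicate 2 the highest for 58. Of the 66 members with transcript GC content at or above the median, siNC replicate 1 was lowest in 46, and of the other 65 in 12. The difference between these libraries followed GC content across members (Pearson r = 0.59, Spearman rho = 0.61, n = 131 genes that share the same libraries) and across all tested genes (r = 0.44, rho = 0.49). siSHMT2 replicates 2 and 3 differed in the same way (r = 0.65 across members). The difference between the groups did not follow GC content across members (r = 0.02), and both GC ranges had a median of 0.09. Across all tested genes it followed GC content weakly (r = 0.13, rho = 0.12). With each library's GC trend removed, 20 members were higher, 7 of them on chromosome 19, and 6 lower. That fit also called more of all genes higher than the main fit did.

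**Figure D4:**
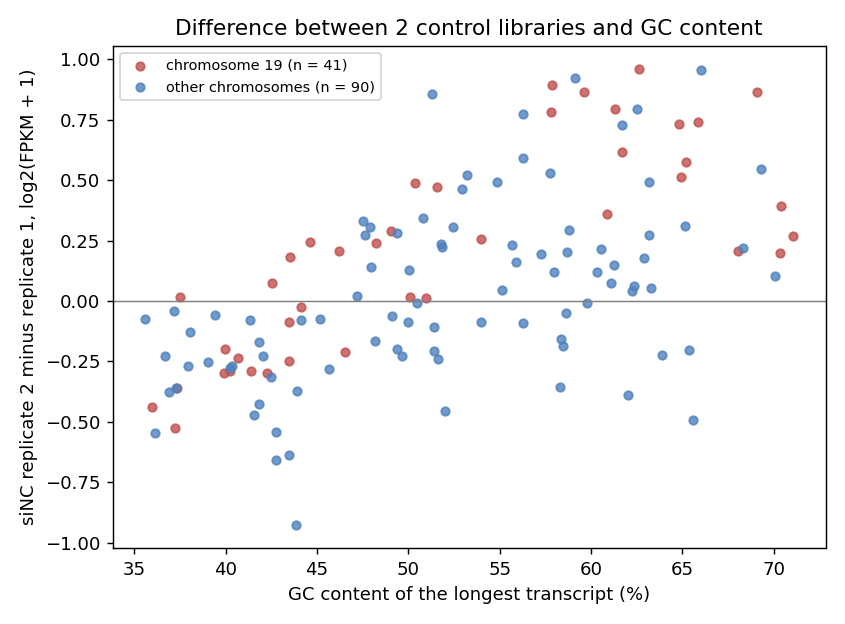
Difference between siNC replicates 2 and 1 in log2(FPKM + 1) against the GC content of the longest transcript, in percent, for each of the 131 members (red: chromosome 19). Points rise from left to right (r = 0.59), so that AT-rich members were mostly higher in replicate 1 and GC-rich members in replicate 2.

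Other zinc finger families were read with the same test. ZSCAN and ZKSCAN genes with a mean of at least 2 FPKM numbered 10, of which 3 were higher and 0 lower, with a median of 0.18. ZFP genes had 0 higher and 1 lower of 6 (median 0.09), ZBTB genes 1 and 2 of 15 (0.01), and KLF and SP genes 0 and 1 of 11 (-0.09). Beside these, 6.9% of the protein-coding genes of at least 2 FPKM were higher and 10.7% lower. None of these families was tested against the ZNF genes.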

How the data were processed

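Gene levels were measured by RNA sequencing in 6 libraries of LX2 cells, 3 with siNC and 3 with siSHMT2, grouped by sample title. The authors deposited 1 table of FPKM values for 60623 genes. The submitters' processing notes list HISAT2 2.0.5 and featureCounts 1.5.0-p3, and name hg18 as the build. The coordinates match GRCh38 and not hg18: all 131 members overlap their GENCODE 29 entry, 64 with identical start and end. Whether reads were counted by strand is not stated. Of the members, 25 overlap a gene with a mean of at least 1 FPKM, and 12 share over 10% of their 50-base words with other genes. No called member is among those 12.

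FPKM times gene length came in whole steps (100% of values above 0 within 0.02), which gave back reads. The totals behind the deposited FPKM were 0.957 to 1.13 times the read sums, and how they were rescaled is not stated.

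Genes with a mean of at least 1 FPKM (10865) were tested with limma 3.58.1 (R 4.3.3) on log2(FPKM + 1) with an intensity trend, no replicate block, and Benjamini-Hochberg adjustment over all of them at 0.05. This scale understates changes of low genes. The fit was tested on simulated data. The text names the 10 largest rises and falls among called members whose groups do not overlap, called chromosome 19 members, the 5 highest members on and off chromosome 19, those nearest the threshold, and listed genes of known role. Members, lists and words were chosen with earlier results of these data known. Alternatives covered pseudocount, filter, scaling, limma voom on recovered reads, array weights, a replicate block, each library left out, GC content, biotype and the level threshold. A fit to genes with neither 3′ UTR word was added after seeing the data.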

Additional observations from a re-analysis of the deposited data

How the results depend on the processing

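Depth limits the low members, since 12 had fewer than 100 reads in some library. Called genes among them are ZNF18 (65, 80 and 58 reads in the siNC libraries) and ZNF232 (78 reads in siNC replicate 2). No called direction reversed under any alternative. SHMT2 kept its call throughout, and 5 of 18 called members kept theirs under every alternative that tested them. Values below give ZNF genes higher and lower, then the 3 medians where they moved.

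With TPM, 1 ZNF gene was lower (1 off chromosome 19), the medians were 0.20 (all), 0.23 (chromosome 19) and 0.19 (elsewhere), and 620 of all genes and 0 of the corepressor list were lower. With FPKM from read sums, 1 was lower (1 off chromosome 19), with medians of 0.16 and 0.15 (all, elsewhere) and 0 of the corepressor list lower. With the GC trend removed, 20 were higher, 7 higher and 1 lower on chromosome 19, the median elsewhere was 0.11, and 1036 of all genes and 3 corepressor genes were higher and 2 lower. Array weights gave 30 higher and 11 lower (10 and 2 on chromosome 19, 20 and 9 elsewhere), medians of 0.13 and 0.11, 1827 and 1976 of all genes, and 5 and 2 corepressor genes. Array weights called 41 members, all 18 of the main calls among them.

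Genes with neither word gave 1 lower (1 elsewhere), with medians of 0.12 and 0.12, 424 of all genes lower and 0 corepressor genes lower, as genes with a word are left out. A filter of 5 FPKM gave 6 higher and 3 lower, 0 higher on chromosome 19, 6 and 3 elsewhere, a median elsewhere of 0.12 and 618 genes lower. Members of at least 5 FPKM gave the same values of 6, 3, 0, 6, 3 and 0.12, and fewer genes then qualify. Members of at least 1 FPKM gave 5 higher on chromosome 19 and a median of 0.14. Without a filter there were 6 higher and 2 lower, 1 higher on chromosome 19, 5 and 2 elsewhere, 333 and 603 of all genes and 0 and 0 of the corepressor list. Protein-coding genes only gave 1 lower on chromosome 19 and 2 corepressor genes lower. A pseudocount of 0.1 gave medians of 0.12 and 0.11. Voom on reads gave 1 lower on chromosome 19, 2 corepressor genes lower and a median elsewhere of 0.11. Causes of the other moves were not tested.

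Deviations of same-numbered libraries from their group means had correlations of -0.0183, -0.349 and 0.243. The highest correlation, 0.496, was between siNC replicate 1 and siSHMT2 replicate 2. Shifts of whole libraries, such as those with GC content, enter these values, so they cannot settle whether equal numbers mark a shared culture. With the replicate block 5 ZNF genes were higher and 1 lower, 0 higher on chromosome 19, 5 and 1 elsewhere, 374 and 696 of all genes, and 0 corepressor genes higher.

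Leaving out each library in turn gave 4 to 15 ZNF genes higher and 1 to 5 lower (0 to 4 and 0 to 1 on chromosome 19, 4 to 11 and 1 to 4 elsewhere), 229 to 729 and 498 to 1132 of all genes, and 0 to 1 and 0 to 1 of the corepressor list. The medians ranged from 0.09 to 0.13 (all), 0.08 to 0.18 (chromosome 19) and 0.07 to 0.12 (elsewhere), and SHMT2 from -3.98 to -3.75.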
